A study of Mus musculus with 40 samples.

Results

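The interferon-regulated mouse genes Ifitm1, Ifitm2, Ifitm3, Bst2 and Rtp4, are described here in the colon of mice carrying the gut protozoan Tritrichomonas musculis (T.mu) and of mice without it. They were chosen by symbol as interferon-induced membrane factors, with earlier results of these data known. All 5 matched an entry among the 45792 mouse gene IDs of the count table. RNA from 40 libraries had been counted at the 3′ ends of transcripts. The tested mice had been inoculated with 2000000 sorted T.mu and the control mice with none, and colonic epithelial cells ("epithelium") or total colonic tissue ("total tissue") were taken 3, 14 or 48 days later. Each group had 3 libraries at days 3 and 14 and 4 at day 48, which gave 10 T.mu and 10 control libraries per preparation. The labels give litter, inoculum, day and tissue, but no strain, sex or age. Since the labels do not tie each library to a mouse of its own, the p-values below measure the spread between these libraries.

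IFITM proteins are small proteins of the plasma membrane and of endosomes that hinder the fusion of enveloped viruses with the cell. BST2, also called tetherin, is anchored in the membrane at both ends and holds budding viruses at the cell surface. RTP4 belongs to a family of transport proteins that help some receptors to reach the cell surface, and interferon raises its RNA. All of these genes are known targets of the interferon receptors, which act through STAT and IRF factors at short promoter elements, the interferon-stimulated response element (ISRE) and the gamma-activated site (GAS). In gut epithelium, type I and type III interferons are the best known inducers of such genes.

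The promoter windows of 4 of the 5 genes are shown (RefSeq, build GRCm38.p6, from 250 bases before to 50 after the RefSeq start of the gene, 5′ to 3′ on the gene's strand). Rtp4, the member that rose in every comparison below, had no entry among the promoters used, so its window was not searched. Of the genes shown, Ifitm3 and Bst2 rose with T.mu in some comparisons. Ifitm2 was called in none, and Ifitm1 was called in none of the total tissue comparisons and could not be tested in epithelium. Capitals mark matches to the ISRE core, spelled GAAA, then any 2 bases, then GAAA, and searched on both strands. The windows are chr7:140967826-140968125 on the plus strand for Ifitm1, chr7:140955912-140956211 on the minus strand for Ifitm2, chr7:141010695-141010994 on the minus strand for Ifitm3 and chr8:71537423-71537722 on the minus strand for Bst2.
Ifitm1: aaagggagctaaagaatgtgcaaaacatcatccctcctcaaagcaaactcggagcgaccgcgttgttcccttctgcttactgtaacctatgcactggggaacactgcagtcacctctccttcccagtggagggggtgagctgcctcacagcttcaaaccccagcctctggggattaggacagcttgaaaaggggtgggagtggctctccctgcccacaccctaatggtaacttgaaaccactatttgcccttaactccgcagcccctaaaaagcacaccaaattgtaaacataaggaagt
Ifitm2: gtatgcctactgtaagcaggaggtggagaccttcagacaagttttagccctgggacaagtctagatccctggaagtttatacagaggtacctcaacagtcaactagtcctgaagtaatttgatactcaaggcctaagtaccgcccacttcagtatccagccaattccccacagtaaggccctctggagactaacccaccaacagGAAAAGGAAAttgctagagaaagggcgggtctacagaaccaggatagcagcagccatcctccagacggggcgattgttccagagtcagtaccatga
Ifitm3: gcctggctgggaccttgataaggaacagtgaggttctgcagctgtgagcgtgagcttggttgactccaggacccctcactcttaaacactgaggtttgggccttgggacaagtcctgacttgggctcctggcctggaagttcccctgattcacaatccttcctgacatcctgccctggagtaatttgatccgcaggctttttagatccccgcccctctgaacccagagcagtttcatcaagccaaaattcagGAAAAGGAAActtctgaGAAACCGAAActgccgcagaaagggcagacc
Bst2: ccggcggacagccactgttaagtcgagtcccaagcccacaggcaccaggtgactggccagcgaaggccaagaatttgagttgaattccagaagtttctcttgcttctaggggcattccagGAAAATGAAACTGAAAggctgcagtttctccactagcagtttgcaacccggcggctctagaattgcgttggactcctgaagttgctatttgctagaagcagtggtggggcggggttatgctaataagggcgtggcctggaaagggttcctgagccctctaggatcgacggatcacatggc

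An ISRE core match was present in 3 of these 4 windows, against 3.44% of all 32851 RefSeq promoter windows. With negative positions counted back from the start, Ifitm2 held 1 match, at -46 to -37. Ifitm3 held 2 matches, at 3 to 12 and 20 to 29 bases after its start, and Bst2 held 2 that overlapped each other, at -130 to -121 and -124 to -115. The window of Ifitm1 held none. In the GENCODE M21 annotation Ifitm1 starts at chr7:140967221, before this window begins, so the bases around that start were not searched. The GAS letters TTCNNNGAA, which read the same on both strands, matched once in Ifitm3 (14 to 22 bases after the start) and once in Bst2 (at -136 to -128), each time overlapping an ISRE core match. They matched in 8.3% of all windows. These are matches of letters only.

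**Figure D1:**
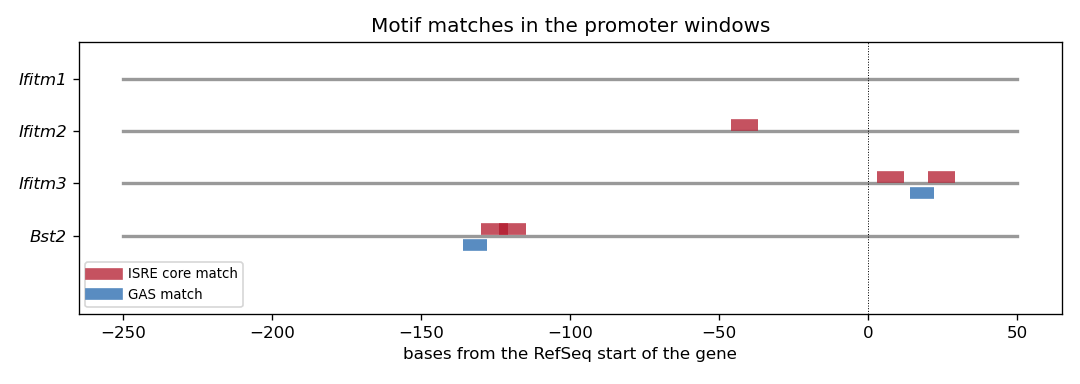
Positions of ISRE core matches (red) and GAS matches (blue) in the promoter windows of 4 genes, in bases from the RefSeq start (dotted line). Bst2 has its matches from -136 to -115, and Ifitm3 has them between 3 and 29 bases after the start. Ifitm1 has none in its window, which does not reach its GENCODE M21 start.

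In the GENCODE M21 annotation (GRCm38), the 3 Ifitm genes lie close together on chromosome 7, with Ifitm2 at chr7:140954837-140955987 (minus strand), Ifitm1 at chr7:140967221-140969825 (plus strand) and Ifitm3 at chr7:141009586-141010770 (minus strand). Bst2 lies at chr8:71534255-71537456 (minus strand) and Rtp4 at chr16:23520291-23614222 (plus strand), where it overlaps Masp1 on the opposite strand. Masp1 had 85 counts in all 40 libraries together. On the same strand Rtp4 also overlaps Gm45338, and Ifitm2 overlaps Gm45717. Neither Gm gene is in the count table. The Ifitm genes resemble each other and several pseudogenes. Of the 30-base windows of their M21 transcripts, 56.1% in Ifitm2, 21.3% in Ifitm3 and 12.3% in Ifitm1 also occurred in a transcript of another gene. In the last 300 bases, where 3′ libraries read, the shares were 32.8%, 10.3% and 4.43%. Bst2 and Rtp4 shared none of their last 300 bases, although 12.6% of the 30-base windows of Rtp4 as a whole occurred in Gm45338. The counts of the Ifitm genes, of Ifitm2 above all, are therefore uncertain to the extent that such reads were dropped or shared out.

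Depth ranged from 170291 to 2866306 mouse counts per epithelial library and from 220717 to 6756616 per tissue library, and 7 libraries held under 400000. Depth differed between arms, with group medians of 842506 counts in T.mu and 327125 in control epithelium at day 3, 2093251 in T.mu and 351445 in control tissue at day 14, and 504696 in T.mu and 3323897.5 in control tissue at day 48. The sample names of the 4 T.mu tissue libraries of day 48 share a second part that none of the other 36 libraries carries, so that whatever it stands for cannot be told apart from T.mu in that comparison. The day 48 difference between preparations includes these libraries. Within each preparation the second part also changed with day, and at day 14 it differed between epithelium and total tissue. Whatever it stands for cannot be told apart from day, or from preparation at day 14. The non-mouse entry of the table ran from 45.2 to 2073 CPM, the counts scaled to a common library total, in T.mu and from 21.8 to 71.5 CPM in control epithelium, and from 1425 to 42755 CPM in T.mu and from 5.11 to 969 CPM in control tissue. All 7 epithelial markers had counts in both preparations, with summed levels of 3777 to 9914 CPM in epithelium and 6856 to 11317 CPM in total tissue. Fibroblast markers summed to at most 42.7 CPM in epithelium and to at least 622.8 CPM in total tissue.

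All levels below are CPM of the mouse counts after TMM scaling within a preparation, and fold changes are T.mu over control from edgeR's quasi-likelihood test, with Benjamini-Hochberg adjustment over all 10119 genes tested in epithelium or 11696 in total tissue. In such bulk samples, fewer cells of a type and less RNA per cell cannot be told apart. At an adjusted p under 0.05, the genes that rose with T.mu in epithelium were Ifitm3 and Rtp4 at day 3, Bst2 and Rtp4 at day 14, and Ifitm3 and Rtp4 at day 48. That was 2 of the 4 members tested on each day, where 0.326%, 0.336% and 0.277% of all genes tested rose at days 3, 14 and 48. Genes with low counts had been filtered out (minimum count 10, scaled to depth), among them Ifitm1 in epithelium, low in both arms. Bst2 passed the epithelial filter only through its T.mu libraries, since its control libraries held at most 6 counts. Its epithelial call and its part in these counts of members are therefore not independent of the filter. In total tissue Bst2 and Rtp4 rose at days 3 and 14 and Rtp4 at day 48. These were 2, 2 and 1 of 5 members, where 0.462%, 0.821% and 1% of all genes tested rose. Every one of these calls was higher with T.mu.

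**Figure D2:**
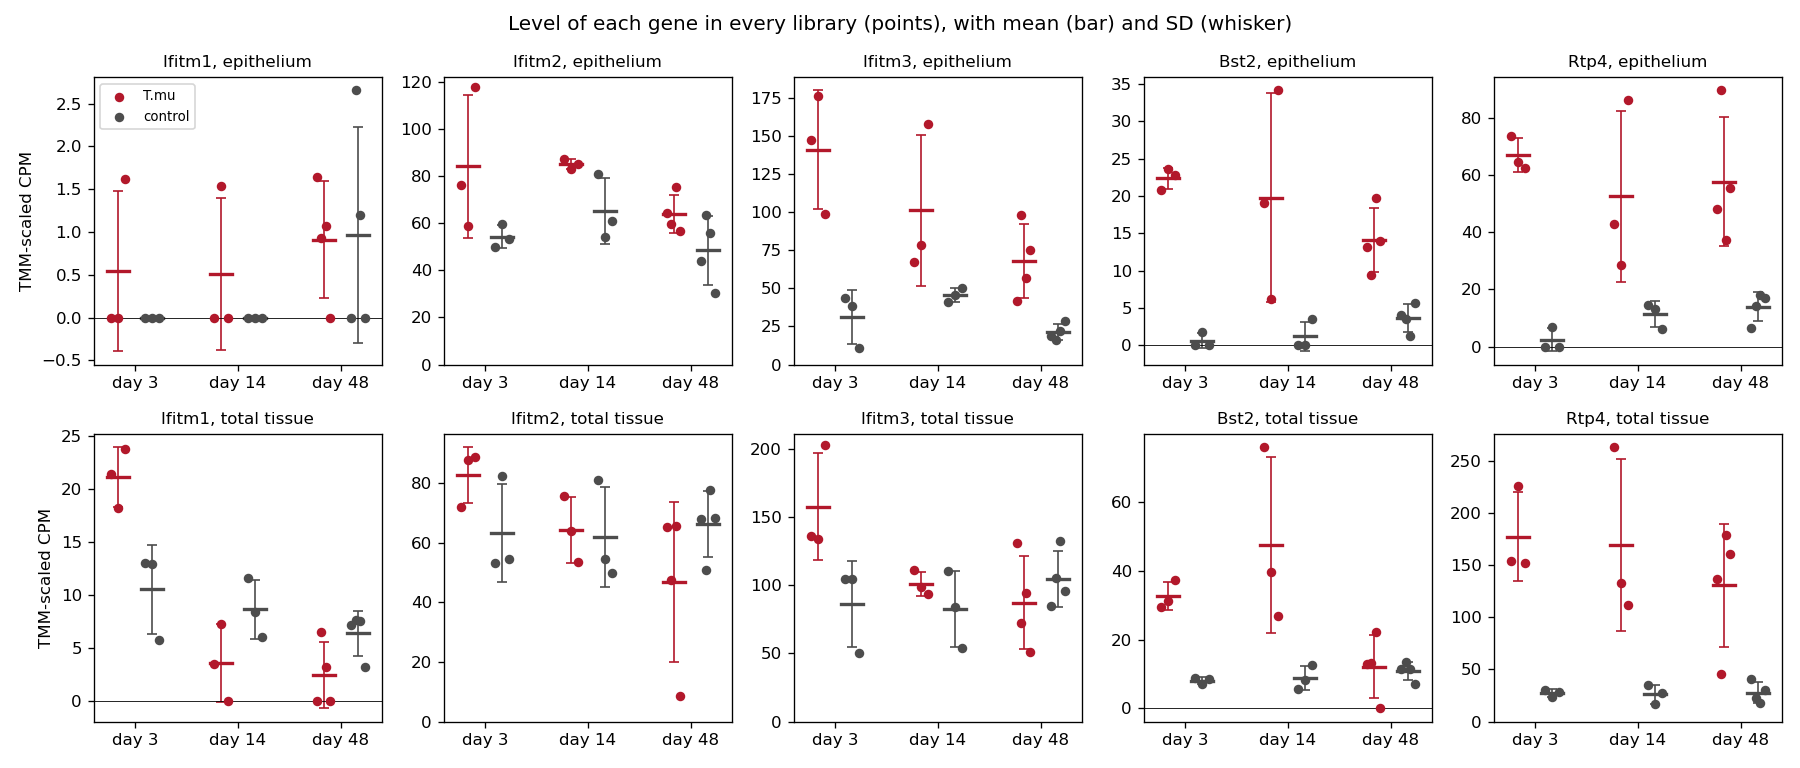
TMM-scaled CPM of the 5 genes in every library (points), with group mean (bar) and SD (whisker), T.mu in red and control in grey, for epithelium (top row) and total tissue (bottom row) by day. For Rtp4 every T.mu point lies above every control point of the same day in both rows, while Ifitm2 and Ifitm3 in tissue at day 48 overlap.

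Rtp4 was the member that rose on every day in both preparations. In epithelium at day 3 its level was 73.9, 64.7 and 62.5 CPM in the T.mu libraries, against 0, 7.01 and 0 CPM in the control libraries. At day 14 it was 43.1, 28.4 and 86.3 CPM with T.mu and 14.5, 13.3 and 6.08 CPM in controls. At day 48 it was 48.0, 89.8, 37.4 and 55.6 CPM with T.mu and 6.68, 14.2, 18 and 17.1 CPM in controls. Every T.mu library exceeded every control library of its day, and the T.mu libraries of day 14 were the most spread out. The log2 fold change was 4.18 ± 0.66 (SE) at day 3 (adjusted p = 6.6e-05), 2.23 ± 0.44 at day 14 (adjusted p = 0.00253) and 2.03 ± 0.35 at day 48 (adjusted p = 0.000496). The day 3 value rests on 163 counts in T.mu and 4 counts in control libraries, a ratio of 18 per unit of depth (95% interval 6.90 to 66.9, counting error only), and without control replicate 2 no control count was left there (adjusted p = 0.000315). Without T.mu replicate 3, the call at day 14 ended (log2 fold change 1.69, adjusted p = 0.119). Over the alternative settings the adjusted p of day 3 ran from 6.04e-08 to 0.109, the highest without the libraries under 400000 counts, and that of day 48 from 1.95e-05 to 0.0162.

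In total tissue Rtp4 stood at 154, 227 and 152 CPM in the T.mu libraries of day 3, against 30.7, 23.7 and 28.1 CPM in their controls. At day 14 the values were 264, 133 and 112 CPM with T.mu and 34.8, 16.8 and 27.4 CPM in controls. At day 48 they were 137, 46.0, 179 and 161 CPM with T.mu and 40.6, 22.8, 18.2 and 29.8 CPM in controls. The groups did not overlap on any day, although T.mu replicate 2 of day 48 came close to the highest control. The log2 fold change was 2.70 ± 0.40 (SE) at day 3 (adjusted p = 0.00121), 2.68 ± 0.48 at day 14 (adjusted p = 0.00626) and 2.25 ± 0.37 at day 48 (adjusted p = 0.00242). At day 14 each of the 3 control libraries carried the call, since the adjusted p was 0.0515, 0.0641 and 0.0687 without control replicates 1, 2 and 3, while the log2 fold change stayed between 2.57 and 2.82. Over the alternative settings the adjusted p ran up to 0.0727 at day 3 and 0.127 at day 48, each time highest without the libraries under 400000 counts. That setting removed no tissue library of day 3, where the shallowest held 1307604 counts, and the log2 fold change was 2.67 there. The change at day 3 came with the removal of libraries of other days from the shared fit. At day 14 the setting left 1 control library, and the log2 fold change was 2.67. The control level of Rtp4 in tissue averaged 27.5 ± 3.55, 26.3 ± 9.04 and 27.9 ± 9.75 CPM (SD) at days 3, 14 and 48.

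Bst2, the tetherin gene, rose in epithelium at day 14 and in total tissue at days 3 and 14. In epithelium at day 3 it had 20.8, 23.5 and 22.7 CPM in the T.mu libraries, against 0, 1.75 and 0 CPM in controls. At day 14 it had 19.0, 6.15 and 34.1 CPM with T.mu and 0, 0 and 3.47 CPM in controls. At day 48 it had 13.2, 9.35, 19.8 and 13.9 CPM with T.mu and 4.01, 3.54, 1.20 and 5.69 CPM in controls. Every T.mu library was again above every control library of its day. The 3 control libraries held 1 count in all at day 3 and 4 counts at day 14, and a count of 0 allows up to 16.0 CPM in the shallowest control library of day 3 and up to 3.62 CPM in that of day 14. The day 3 ratio, 54 counts in T.mu against 1 in controls, was 23.9 per unit of depth with a 95% interval of 4.11 to 960 that covers counting error only. Its fitted log2 fold change of 4.46 ± 1.13 had an adjusted p of 0.0553, which missed the threshold, and over the alternative settings this p ran from 0.0385 to 0.466. At day 14 the log2 fold change was 3.82 ± 0.80 (adjusted p = 0.00666) and at day 48 it was 2.00 ± 0.58 (adjusted p = 0.235). The call at day 14 ended without control replicate 1 (log2 fold change 3.38, adjusted p = 0.0867), without control replicate 2 (3.25, adjusted p = 0.108) and without T.mu replicate 3 (3.19, adjusted p = 0.119). Without control replicate 3 no control count was left and the adjusted p was 0.0023.

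In total tissue Bst2 stood at 29.5, 31.2 and 37.3 CPM with T.mu at day 3, against 8.81, 6.99 and 8.59 CPM in controls. At day 14 it stood at 76.0, 39.8 and 26.8 CPM with T.mu and at 5.79, 8.39 and 12.6 CPM in controls. At day 48 it stood at 13.1, 13.1, 22.4 and 0 CPM with T.mu and at 11.6, 13.5, 11.4 and 7.05 CPM in controls. The groups were apart at days 3 and 14 and overlapped at day 48, when T.mu values lay within the range of the controls, above it (22.4 CPM) and below it (0 CPM). The log2 fold change was 1.99 ± 0.38 (SE) at day 3 (adjusted p = 0.00112), 2.27 ± 0.47 at day 14 (adjusted p = 0.00303) and 0.47 ± 0.41 at day 48 (adjusted p = 0.666). Without T.mu replicate 1 of day 14, the log2 fold change of that day was 1.72 and the call ended (adjusted p = 0.13). Without control replicate 3 it was 2.89 (adjusted p = 0.0187). The 0 at day 48 came from the library of 236155 counts, the shallowest of its group, where a count of 0 allows a level of up to 12.7 CPM (3 counts, counting error only). Over the alternative settings the adjusted p of day 14 ran from 0.00031 to 0.13, and that of day 3 from 3.79e-05 to 0.0236.

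Ifitm3, the family member best known for restricting viruses in endosomes, rose in epithelium and did not pass the test in total tissue. In epithelium at day 3 it had 148, 177 and 99.1 CPM in the T.mu libraries, against 43.8, 38.6 and 10.6 CPM in controls. At day 14 it had 67.1, 78.4 and 158 CPM with T.mu and 41.1, 45.6 and 50.4 CPM in controls. At day 48 it had 41.5, 98.2, 56.6 and 75.4 CPM with T.mu and 18.7, 15.9, 22.2 and 28.4 CPM in controls. No control library reached the lowest T.mu library of its day. The log2 fold change was 2.02 ± 0.39 (SE) at day 3 (adjusted p = 0.00218), 1.13 ± 0.32 at day 14 (adjusted p = 0.104) and 1.65 ± 0.30 at day 48 (adjusted p = 0.000801). With the 6 libraries of day 14 fitted alone, the log2 fold change of that day was 1.12 and passed the threshold (adjusted p = 0.00908), and over all alternative settings this p ran from 0.00908 to 0.571. At day 3 it ran from 5.75e-05 to 0.301, the highest without the libraries under 400000 counts, and at day 48 from 7.51e-05 to 0.0177.

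In total tissue Ifitm3 had 136, 134 and 203 CPM with T.mu at day 3, against 104, 104 and 50.1 CPM in controls. At day 14 it had 111, 98.9 and 93.7 CPM with T.mu and 110, 83.9 and 54.3 CPM in controls. At day 48 it had 131, 72.2, 94.2 and 51.0 CPM with T.mu and 84.8, 105, 133 and 95.5 CPM in controls. The groups were apart at day 3, overlapped at days 14 and 48, and at day 48 the lowest values were in T.mu libraries. The log2 fold change was 0.86 ± 0.26 (SE, adjusted p = 0.208), 0.39 ± 0.30 (adjusted p = 0.769) and -0.26 ± 0.24 (adjusted p = 0.709) at days 3, 14 and 48.

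Ifitm2 is the member with the most sequence shared with other genes, and it passed the test in none of the 6 comparisons of T.mu with control. In epithelium it ran from 56.6 to 118 CPM over the 10 T.mu libraries and from 30.3 to 80.9 CPM over the 10 control libraries, with medians of 75.7 CPM and 55.0 CPM. T.mu and control libraries overlapped at days 3 and 48, and at day 14 the T.mu libraries (83.0 to 87.4 CPM) stood just above the controls (54.2 to 80.9 CPM). The log2 fold changes were 0.67 ± 0.33, 0.39 ± 0.28 and 0.40 ± 0.25 (SE) at days 3, 14 and 48, and none passed the test (adjusted p = 0.447, 0.688 and 0.996). In total tissue the range was 8.49 to 88.8 CPM with T.mu and 49.9 to 82.3 CPM in controls, with medians of 65.4 and 61.2 CPM. The value of 8.49 CPM was 2 counts in the T.mu library of day 48 with the fewest counts. The tissue log2 fold changes were 0.39 ± 0.26, 0.14 ± 0.30 and -0.38 ± 0.26 (adjusted p = 0.999, 0.959 and 0.552), and that of day 14 turned to -0.05 without control replicate 3 and to -0.01 without T.mu replicate 1.

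Ifitm1 was close to the floor of the epithelial libraries and could not be tested there. It had 12 counts in the 10 T.mu libraries and 5 counts in the 10 control libraries of epithelium, and 5 T.mu and 8 control libraries had none. Exact two-sided permutation tests of its CPM gave p = 1, 1 and 0.914 at days 3, 14 and 48 (n = 3, 3 and 4 per group). At days 3 and 14 a single T.mu library held all the counts. Every split of the libraries then gave the same difference, so p was fixed in advance and these tests could not decide. Groups of 4 cannot reach below 0.0286. In total tissue it had 21.5, 18.2 and 23.8 CPM with T.mu at day 3, against 13.1, 12.9 and 5.72 CPM in controls. At day 14 it had 3.51, 7.32 and 0 CPM with T.mu and 11.6, 8.39 and 6.03 CPM in controls. At day 48 it had 0, 6.56, 3.19 and 0 CPM with T.mu and 7.14, 7.61, 7.53 and 3.26 CPM in controls. The T.mu libraries were all higher at day 3, and at days 14 and 48 the groups overlapped. The T.mu values of 0 came from shallow libraries, where a count of 0 allows up to 6.70 CPM at day 14 and up to 9.79 and 12.7 CPM at day 48, which is within or above the range of the controls. The log2 fold changes of 1.00 ± 0.49, -0.79 ± 0.71 and -0.96 ± 0.68 (SE) at days 3, 14 and 48 did not pass the test (adjusted p = 0.943, 0.82 and 0.571).

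Counted over the members, all T.mu libraries of a day lay above all its controls for 3 of the 4 tested members in epithelium at day 3, 4 of 4 at day 14 and 3 of 4 at day 48, where this held for 7.6%, 9.76% and 2.09% of all genes tested. Bst2, which passed the epithelial filter only through its T.mu libraries, is among these members on each day. In total tissue it held for 4 of 5 members at day 3, 2 at day 14 and 1 at day 48, where it held for 6.84%, 8.77% and 2.71% of all genes. The member apart in all 6 comparisons was Rtp4.

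**Figure D3:**
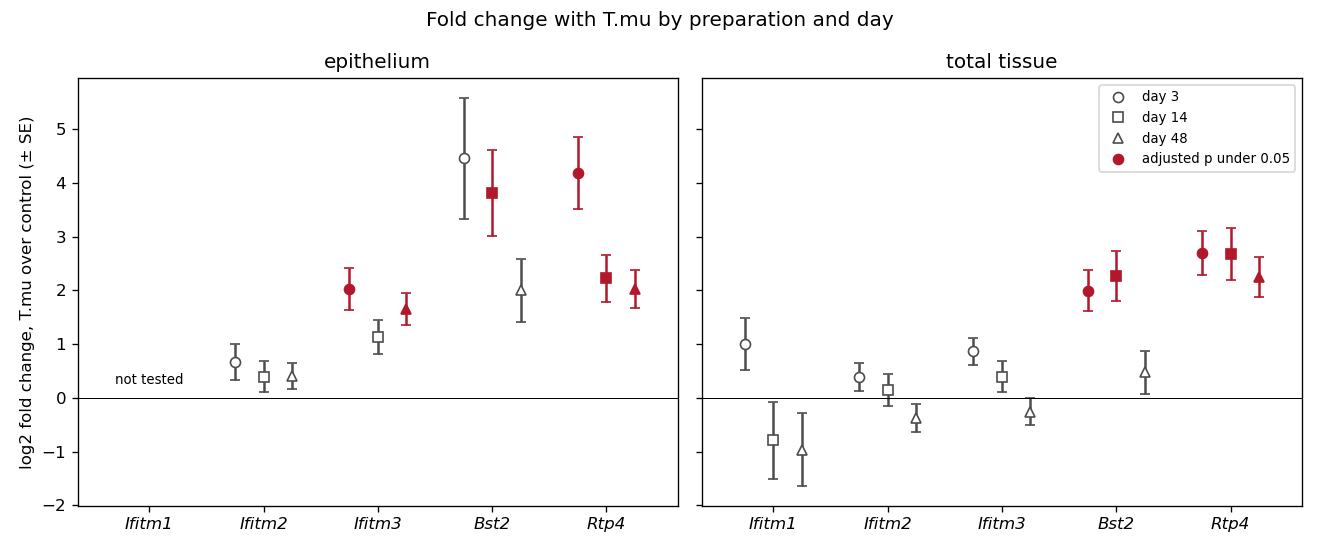
Log2 fold change of T.mu over control (± SE, edgeR) for each gene on days 3 (circles), 14 (squares) and 48 (triangles), with epithelium left and total tissue right, and red symbols where the adjusted p is under 0.05. Rtp4 is red in all 6 comparisons, Ifitm3 is red in epithelium at days 3 and 48 and in no tissue comparison, and Ifitm1 was not tested in epithelium.

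Averaged over the 3 days with equal weight, 3 of 4 members rose in epithelium, where 2.46% of all genes tested rose, and 2 of 5 in total tissue, where 1.5% did. One of the epithelial members, Bst2, had passed the filter there only through its T.mu libraries. The mean epithelial log2 fold changes were 1.60 ± 0.20 (SE) for Ifitm3 (adjusted p = 2.19e-08), 3.42 ± 0.49 for Bst2 (adjusted p = 1.34e-06) and 2.81 ± 0.29 for Rtp4 (adjusted p = 7.72e-11), and Ifitm2 had 0.49 ± 0.17 (adjusted p = 0.0872). Without control replicate 2 of day 3 the values of Bst2 and Rtp4 were 4.51 and 4.52, and Bst2 had 4.66 without control replicate 3 of day 14. Ifitm2 passed the threshold with DESeq2 (adjusted p = 0.0458), without T.mu replicate 2 of day 3 (0.0444) and without T.mu replicate 4 of day 48 (0.0458), and over all alternative settings this p ran from 0.0444 to 0.304. In total tissue the mean values were 1.58 ± 0.25 for Bst2 (adjusted p = 6.28e-06) and 2.54 ± 0.24 for Rtp4 (adjusted p = 1.45e-06), while Ifitm3 had 0.33 ± 0.15 (adjusted p = 0.405), Ifitm2 0.05 ± 0.16 (adjusted p = 0.97) and Ifitm1 -0.25 ± 0.37 (adjusted p = 0.891).

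Whether the response itself differed between days was asked with a test of 2 degrees of freedom, which called 0 of 4 members in epithelium, where 0% of all genes were called, and 0 of 5 in total tissue, where 0.0684% were. At edgeR's unadjusted p under 0.05 there were 1 member (Rtp4) in epithelium and 3 members (Ifitm1, Ifitm3 and Bst2) in total tissue. Over all genes, 419 of 10119 in epithelium and 1140 of 11696 in total tissue were under that unadjusted cut. No other tool was run on this test. The adjusted p of Bst2 in tissue was 0.324, although its fold change passed the test at days 3 and 14 and not at day 48. The control groups of the 3 days were compared in the same way, and 0 members were called in epithelium (0.0791% of all genes) or in total tissue (1.15% of all genes). The second part of the sample names differed between the 3 days in each preparation, so it cannot be told apart from day here. For these controls edgeR listed 2 members (Ifitm3 and Rtp4) in epithelium and 0 in total tissue at an unadjusted p under 0.05. Over all genes it listed 1155 of 10119 in epithelium and 1316 of 11696 in total tissue.

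The order of the group means shows where the days lie. In epithelium the 3 T.mu means of Ifitm3 (141 ± 39.1, 101 ± 49.6 and 67.9 ± 24.5 CPM at days 3, 14 and 48, mean ± SD) stood above the 3 control means (31.0 ± 17.8, 45.7 ± 4.66 and 21.3 ± 5.39 CPM), and no 2 neighbours in that order differed by more than the larger of their SDs. For Bst2 in epithelium the T.mu means were 22.4 ± 1.42, 19.8 ± 14.0 and 14.0 ± 4.30 CPM and the control means 0.585 ± 1.01, 1.16 ± 2.01 and 3.61 ± 1.85 CPM, and the lowest T.mu mean exceeded the highest control mean by more than either SD. The same held for Rtp4 in both preparations. For Bst2 in tissue the T.mu mean of day 48 (12.1 ± 9.19 CPM) was a neighbour of the control means (8.13 ± 0.993, 8.93 ± 3.44 and 10.9 ± 2.71 CPM at days 3, 14 and 48) within that spread. In tissue the T.mu mean of day 3 was the highest of 6 for all 3 Ifitm genes, and it exceeded the next group by more than the larger SD in each.

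Did epithelium and total tissue respond by the same amount? The difference of the 2 log2 fold changes was fitted over all 40 libraries, with 11834 genes tested. At day 48 the Ifitm3 response was larger in epithelium than in total tissue by 1.92 ± 0.40 on the log2 scale (SE, adjusted p = 0.0207), which was 1 of 5 members called, where 0.0338% of all genes were called. Within each preparation the Ifitm3 log2 fold change of that day was 1.65 in epithelium and -0.26 in total tissue. At days 3 and 14 the test called 0 of 5 members (0.0338% and 0% of all genes), with 1 member (Ifitm3) and 0 members at edgeR's unadjusted p under 0.05. Of the 11834 genes, 1262 and 844 were under that unadjusted cut at days 3 and 14. The day 3 difference of Rtp4 was 1.56 ± 0.97 (adjusted p = 0.598), and at day 48 Bst2 differed by 1.63 ± 0.70 (adjusted p = 0.445) and Rtp4 by -0.21 ± 0.52 (adjusted p = 0.942). The median difference over all genes was 0.16 at days 3 and 48 and -0.04 at day 14, and RLE scaling moved that of day 3 to -0.06. The Ifitm3 call at day 48 depended on the scaling and on single libraries. With RLE scaling the difference was 1.83 (adjusted p = 0.0877), and with counts halved it was 1.83 (adjusted p = 0.0622). It lost the threshold without 7 of the 16 libraries in turn (T.mu replicates 2 and 4 and control replicates 1 and 2 of epithelium, T.mu replicates 2 and 4 and control replicate 3 of total tissue), with log2 differences of 1.70 to 1.85 and adjusted p from 0.0678 to 0.109. Over all alternative settings the adjusted p ran from 0.000516 to 0.109.

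In the control mice, 4 of 5 members were lower in epithelium than in total tissue, where 29.7% of all genes tested were lower. On a scale common to the 40 libraries, Ifitm1 had a median of 0 CPM (lowest 0, highest 2.81) in the 10 control epithelial libraries and of 7.27 CPM (3.13 to 12.5) in the 10 control tissue libraries. Ifitm3 had medians of 34.2 CPM (10.2 to 54.4) in epithelium and 95.6 CPM (47.3 to 127) in tissue. Bst2 had medians of 1.54 CPM (0 to 5.70) in epithelium and 8.28 CPM (5.56 to 13.0) in tissue. Ifitm1 did not overlap between the preparations, and Ifitm3 and Bst2 overlapped only at the edges. Rtp4 had medians of 10.7 CPM (0 to 18.9) in epithelium and 26.4 CPM (16.1 to 39.0) in tissue, and Ifitm2 had 58.1 CPM (30.4 to 86.4) in epithelium and 58.7 CPM (47.8 to 78.5) in tissue, where the ranges covered each other. The log2 differences of epithelium from tissue were -5.48 ± 0.93 (SE) for Ifitm1 (adjusted p = 4.94e-07), -1.36 ± 0.19 for Ifitm3 (adjusted p = 6.57e-09), -2.42 ± 0.49 for Bst2 (adjusted p = 2.08e-05) and -1.61 ± 0.35 for Rtp4 (adjusted p = 0.000138). For Ifitm2 the difference was -0.06 ± 0.18 (adjusted p = 0.781). RLE scaling moved the median of all genes from -0.07 to 0.18 in this comparison and called the same number of members (4), while the Ifitm2 difference turned to 0.18, at the new median. The Ifitm1 value rests on 5 counts in control epithelium and 236 counts in control tissue. The Bst2 difference was -3.63 without control epithelium replicate 2 of day 3 and -3.82 without control epithelium replicate 3 of day 14, and that of Rtp4 was -3.45 without control epithelium replicate 2 of day 3.

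**Figure D4:**
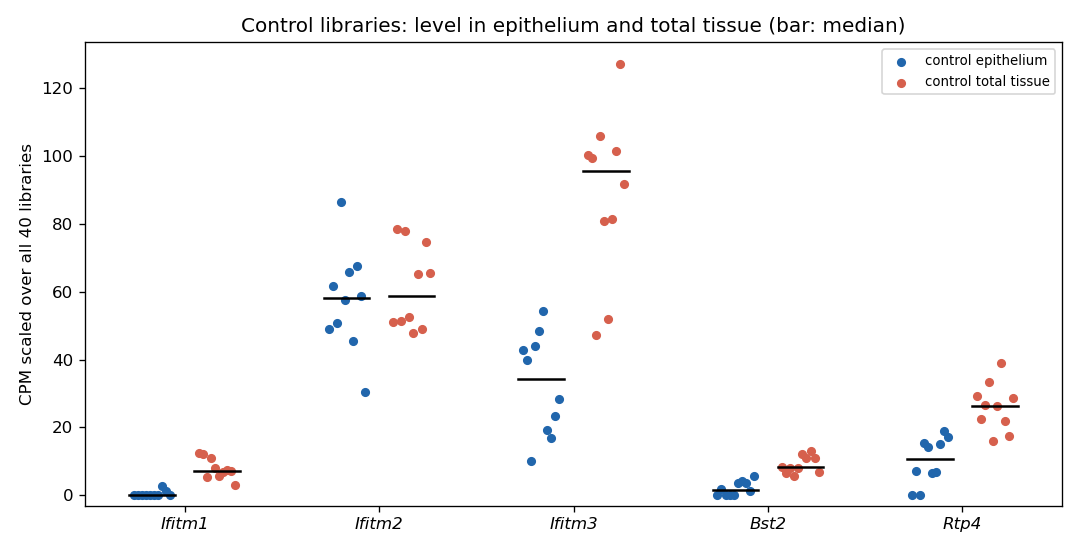
Level of each gene in the 10 control epithelial (blue) and 10 control tissue libraries (orange), as CPM scaled over all 40 libraries, with the median as a bar. Ifitm1, Ifitm3, Bst2 and Rtp4 are lower in epithelium, and Ifitm2 has medians of 58.1 and 58.7 CPM.

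The wider interferon programme was followed with 41 interferon-induced genes, of which 38 were tested in epithelium and 40 in total tissue. This list, like those of the next paragraph, was chosen with earlier results of these data known. Its counts and medians are therefore a description and not a test of the list. In epithelium 14, 13 and 12 of the 38 rose with T.mu at days 3, 14 and 48, and none fell at an adjusted p under 0.05. At that threshold 0.326%, 0.336% and 0.277% of all genes tested rose on these days. The median log2 fold change of the list was 1.85, 1.56 and 1.39, against 0.06, 0.01 and 0.02 over all genes tested. With the 5 genes that had an empty group at day 3 set to their bound (3 counts over the group), the median of that day was again 1.85. In total tissue 28, 30 and 27 of the 40 rose and none fell, where 0.462%, 0.821% and 1% of all genes tested rose. The medians of the list were 1.69, 2.21 and 1.59 there, against -0.01, 0.06 and -0.11 over all genes. Examples were Irf7, a transcription factor of the interferon response (log2 fold change 2.80, adjusted p = 9e-08, in epithelium at day 3), and Oasl2, of the oligoadenylate synthetase-like family (3.65 at day 14, adjusted p = 1.03e-08, and 2.64 at day 48, adjusted p = 1.76e-07, in epithelium). In total tissue Trim30a had 3.39 at day 3 (adjusted p = 3.8e-07), Oas1a, which makes the activator of RNase L, had 2.67 at day 14 (adjusted p = 2.91e-08), and Zbp1, a nucleic acid sensor, had 2.17 at day 48 (adjusted p = 5.93e-06). In control mice 24 of the 40 were lower and 1 was higher in epithelium than in total tissue. Of all genes tested in that comparison, 29.7% were lower. The median log2 difference of the list was -0.89, against -0.07 over all genes. Irf7 was lower there by a log2 difference of -3.20 (adjusted p = 2.33e-33).

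Ligands, receptors and receptor kinases of interferon form a list of 16, of which 7 were tested in epithelium and 9 in total tissue. All of those tested are receptor chains or kinases, since each of the 7 ligand genes had 0 to 14 counts over the 20 libraries of a preparation and none could be tested. With T.mu 0 of the tested genes were called in any of the 6 comparisons, by edgeR or by DESeq2, and 3 of the 48 tests had an unadjusted p under 0.05 with edgeR. Over all genes, 462 to 1117 of 10119 in epithelium and 606 to 1597 of 11696 in total tissue had such a p per day. In control mice 6 of the 9 were lower in epithelium than in total tissue, where 29.7% of all genes tested were lower. Among the 6 were the receptor chains Ifngr1 (log2 difference -1.53, adjusted p = 1.61e-19), Ifngr2 (-1.53, adjusted p = 9.74e-18) and Ifnar1 (-1.42, adjusted p = 1.43e-07). Among 6 genes whose products modify or cooperate with IFITM proteins, 0 were called with T.mu on any single day by edgeR or DESeq2, and 1 of 36 tests had an unadjusted p under 0.05 with edgeR. For the epithelial mean over days edgeR called 0 and DESeq2 called 1 (Zdhhc20). These are Zmpste24, the ubiquitin ligase Nedd4, the palmitoyltransferases Zdhhc20, Zdhhc7 and Zdhhc3, and Vcp. In control mice Nedd4 (-0.63), Zmpste24 (-0.93) and Zdhhc20 (-0.46) were lower and Zdhhc3 (0.49) was higher in epithelium than in tissue (log2 differences, adjusted p under 0.05 with edgeR), and DESeq2 did not call Zdhhc20. The other Ifitm and Rtp genes, Ifitm5, Ifitm6, Ifitm7, Ifitm10, Rtp1, Rtp2 and Rtp3, had too few counts to be tested in either preparation.

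Which genes followed each member over the 20 libraries of a preparation was read from the Pearson correlation of log2 CPM (prior count 2). These values are a description, since the libraries of a group share day and inoculum and are not independent points. In epithelium the nearest genes were Ifit1 (r = 0.933), Ifi27l2a (0.903) and Ran (0.878) for Rtp4, Oas3 (0.914), Ifi44 (0.901) and Oasl2 (0.894) for Bst2, Ifit1bl1 (0.902), Lypd8 (0.895) and Rnf213 (0.894) for Ifitm3, and Alad (0.91), Fasn (0.904) and Anxa2 (0.897) for Ifitm2. Of these 12 genes, 7 are on the list of interferon-induced genes and none of those is a neighbour of Ifitm2. In total tissue Rtp4 again had Ifit1 (0.948) first, then Ddx60 (0.944) and Ifi27l2b (0.938), and Bst2 had Ddx58 (0.88), Areg (0.843) and Oas2 (0.832). Ifitm3 had Sparcl1 (0.888), Tagln (0.843) and Crip2 (0.837) there, Ifitm2 had Axl (0.945), Commd10 (0.943) and Cdk4 (0.935), and Ifitm1 had Olfml3 (0.898), Trim3 (0.897) and Vps9d1 (0.866). Of these 15 genes 4 are on the list, all beside Bst2 or Rtp4. In tissue Ifitm2 was far lowest, at 8.49 CPM (2 counts), in T.mu replicate 4 of day 48, a library of 236155 counts. How far the r values of Ifitm2 rest on that library was not tested. Among the members themselves, Rtp4 and Bst2 had r = 0.834 in epithelium and 0.417 in total tissue, and Rtp4 and Ifitm3 had 0.738 in epithelium and 0.295 in total tissue.

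Markers of other cells moved with T.mu in some of these comparisons, and their part in the results was not tested. In epithelium at day 3, 5 red blood cell markers summed to 88.3 to 283 CPM in the T.mu libraries and to 10.6 to 59.6 CPM in the controls, where Alas2 was at 0. The 7 epithelial markers summed to 6288 to 9194 CPM with T.mu and 3820 to 5659 CPM in controls at day 3, and to 7480 to 9914 CPM with T.mu and 4797 to 6569 CPM in controls at day 14. The 8 macrophage and dendritic markers ran from 2.30 to 17.9 CPM in the T.mu libraries and from 3.80 to 16.1 CPM in the control libraries of epithelium. At day 3 their sums were lower with T.mu (5.69 to 8.83 CPM) than in controls (9.39 to 16.0 CPM), without overlap. These sums are low, since 3 counts make 16.0 CPM in the shallowest control library of day 3. In total tissue at day 3 the macrophage and dendritic markers, all 8 with counts, summed to 236 to 311 CPM with T.mu and 94.0 to 174 CPM in controls. The 6 fibroblast markers summed to 1250 to 1791 CPM with T.mu and 623 to 1304 CPM in controls, with overlap. At day 48 the macrophage and dendritic sums of T.mu tissue (42.5 to 229 CPM) and control tissue (127 to 247 CPM) overlapped, as did those of plasma cells (403 to 715 and 197 to 471 CPM). At day 14 the plasma cell sums of tissue were apart (603 to 817 with T.mu and 428 to 594 CPM in controls). The 6 T cell markers of tissue were higher with T.mu at day 14 (12.6 to 15.6 against 0 to 11.6 CPM). They were also apart at day 48 (9.85 to 17.0 against 1.78 to 8.95 CPM) and overlapped at day 3. In epithelium the T cell sums were apart at day 14 (3.07 to 7.19 with T.mu and 0 to 2.61 CPM in controls) and overlapped at days 3 and 48. All these T cell sums are low. At day 14, 3 counts make 12.6 CPM in the shallowest control tissue library and 3.62 CPM in the shallowest control epithelial library.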

How the data were processed

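The deposited table holds unnormalized whole-number counts for each gene and library. Libraries were made for 3′ digital gene expression, per the labels' protocols. The submitters' processing notes name STAR and Subread. Neither the build and annotation nor strand use and molecular identifiers are given in the sources used here, so intervals and floors cover counting error only. In each library 61.2% to 87.2% of the values from 1 to 20 were even, so low counts are less precise than they look. Of the 45792 mouse gene IDs, 98.6% took a symbol from GENCODE M21 (GRCm38), and 57.9% carry the same ID version there. A non-mouse entry (0.389% of counts) entered neither library sizes nor tests.

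Counts were tested with edgeR 4.0.16 in R 4.3.3 (quasi-likelihood test, TMM scaling, filterByExpr with minimum count 10 and minimum total 15, robust fit). There was 1 fit per preparation over its 20 libraries and 1 over all 40, with Benjamini-Hochberg adjusted p over all genes tested and a threshold of 0.05. The test was tried on simulated counts first. Alternatives were RLE scaling, no filter, halved counts, no libraries under 400000 counts, DESeq2 1.42.0, the libraries of 1 comparison alone, replicate blocks and leaving out each library. The members and gene lists were chosen with earlier results of these data known. Named genes were the 5 members, the 3 genes of highest correlation with each, and up to 4 called genes per list with the smallest adjusted p. Replicate numbers are the litter numbers of the labels, so they pair T.mu with control. The deviations of the 20 same-litter pairs from their group means correlated at -0.10 to 0.19 (median 0.03), and 3 pairs were over 0.1. Promoters and motifs came from RefSeq (GRCm38.p6) and were searched in Python 3.11.15.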

Additional observations from a re-analysis of the deposited data

Results flagged for a closer look

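Among the 4 control tissue libraries of day 48, Ifitm1 stood at 3.26 CPM in 1 library, farther below the other 3 (7.14 to 7.61 CPM) than Dixon's 95% limit allows. The low value was 12 counts. Chance gives such a gap in about 1 of 20 groups, and with 5 genes in 12 groups some gaps of this size would come by chance. Its cause was not tested.

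The response of Ifitm3 to T.mu at day 48 differed between preparations, with a log2 fold change larger in epithelium than in total tissue by 1.92 (adjusted p = 0.0207, edgeR). The call was lost with RLE scaling (adjusted p = 0.0877), and the T.mu tissue libraries of that day had a median of 504696 counts, against 3323897.5 in the controls.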

How the results depend on the processing

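The counts of members called were the same under RLE scaling, no filter, halved counts, the libraries of a comparison alone, the litter block and DESeq2 except as follows, and the cause was not tested. With no filter 3 members were called in epithelium at day 3, since Bst2 passed (adjusted p = 0.0385). RLE scaling and halved counts each took the members whose response differed between preparations at day 48 to 0, and DESeq2 called 1 member in epithelium at day 14, where it gave Bst2 no adjusted p. Equal counts hid other members in places. For the epithelial mean over days DESeq2 also gave Bst2 no adjusted p and called Ifitm2 among its 3, and with the day 14 epithelial libraries alone Bst2 was not tested and Ifitm3 was called beside Rtp4. Without the 7 libraries under 400000 counts, which leaves 1 control library in epithelium at day 3 and in tissue at day 14, the members called were 0 in epithelium at day 3 and 1, 0 and 0 in total tissue at days 3, 14 and 48. Leaving out single libraries gave 0 to 2 members called in epithelium at day 14, 1 to 2 in tissue at day 14, 3 to 4 for the epithelial mean over days and 0 to 1 for the difference between preparations at day 48.

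Directions that turned belonged to values that had not passed the test. Ifitm2 turned to -0.00052 for the tissue mean over days with no filter, and to 0.18 (RLE scaling), 0.0418 (halved counts) and 0.18 (DESeq2) for control epithelium against control tissue, and Rtp4 to 0.0372 for the preparation difference at day 48 without the libraries under 400000 counts. Leaving out single libraries gave Ifitm2 -0.0535 to 0.372 in tissue at day 14, -0.0295 to 0.125 for the tissue mean and -0.157 to 0.089 between control preparations, and Bst2 -0.10 to 0.68 in tissue at day 48. For preparation differences it gave Ifitm1 -0.997 to 3.30 at day 3 and Rtp4 -0.977 to 0.076 at day 14 and -0.518 to 0.0523 at day 48 (all on the log2 scale).

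With litter as a block the members called were 2 on each day in epithelium and 2, 2 and 1 in total tissue, and no member's call changed. DESeq2 was not run for differences between days or between preparations. Depth limits Bst2, Rtp4 and Ifitm1 in control epithelium, where several libraries held 0 to 4 counts, and Ifitm1 and Bst2 in the shallow T.mu tissue libraries.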
